A study of Mus musculus with 2 samples.

Results

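Expression of 10 genes that serve protein folding in the endoplasmic reticulum (ER) was described in cultured primary mouse brain pericytes (PCs) at passage 5 (PC5) and passage 20 (PC20). The genes, taken by symbol, were *Hspa5*, *Hsp90b1*, *Calr*, *Canx*, *Pdia3*, *Pdia4*, *Pdia6*, *Dnajb9*, *Xbp1* and *Herpud1*, which are 10 of the 31053 genes listed in each library. *Trib3* and *Ddit3*, known targets of the transcription factor ATF4, were read in the same cells. Both cultures were grown from the brains of female wild type C57BL/6N mice aged 6 to 8 weeks, with 6 animals pooled per isolation, and both were moved from an endothelial growth medium to Pericyte Medium in early passages. The study's methods describe a separate isolation for each passage, whereas the description deposited with the data speaks of a single one, so the effects of passaging and of isolation cannot be told apart. Each passage has 1 droplet single-cell library, so no difference has a replicate check, no test was made, and the cells of a library are not replicates of its passage.

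Secreted and membrane proteins fold in the lumen of the ER with the help of chaperones, lectins and enzymes that make disulfide bonds. When unfolded proteins build up, the sensors PERK, IRE1 and ATF6 signal to the nucleus. IRE1 and ATF6 act through the transcription factors XBP1 and cleaved ATF6, which bind promoter elements of chaperone genes. PERK phosphorylates eIF2α, a step that other kinases can also take and that favours the translation of ATF4, whose targets include *Trib3*, *Ddit3*, *Chac1* and *Asns*.

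The promoters of these genes were read for the elements named in that pathway, to place the expression values beside the sequences. Over the 300 bases from 250 before to 50 after the RefSeq gene start (GRCm38.p6, 32851 promoters), both strands were searched for 4 motifs. The ER stress response element (CCAAT, 9 other bases, then CCACG) was found in 5 of the 10 chaperone genes, *Hspa5*, *Hsp90b1*, *Calr*, *Canx* and *Pdia6*, and in 0.119% of all promoters. Its short form (ATTGG, any base, then CCACG) was found in *Herpud1* alone of the 12 genes and in 0.0365% of all promoters. The ATF4-type element TGATGNAA was found in *Herpud1* and *Trib3* and in 3.97% of all promoters. The XBP1-type element TGACGTGG was found in none of the 12 genes and in 0.676% of all promoters. No match of one motif overlapped a match of another in the 12 promoters. A match is a string of letters and not a shown binding site, and a missing match says only that these letters are not in the window.

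The 250 bases before the start are printed for the 4 chaperone genes with the largest differences between the libraries and for *Canx*, which holds the same element and had its higher level in the other library. They are written 5′ to 3′ on the strand of the gene, with motif matches in capitals. *Hspa5* is read from chr2:34771840-34772089 (plus strand), *Hsp90b1* from chr10:86705445-86705694 (minus strand), *Pdia6* from chr12:17266339-17266588 (plus strand), *Herpud1* from chr8:94386179-94386428 (plus strand) and *Canx* from chr11:50325674-50325923 (minus strand).
Hspa5: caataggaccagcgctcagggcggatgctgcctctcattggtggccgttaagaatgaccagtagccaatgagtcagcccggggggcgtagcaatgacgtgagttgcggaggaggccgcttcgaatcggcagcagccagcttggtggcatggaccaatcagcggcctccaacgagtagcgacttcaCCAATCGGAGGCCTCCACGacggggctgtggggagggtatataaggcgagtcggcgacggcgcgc
Hsp90b1: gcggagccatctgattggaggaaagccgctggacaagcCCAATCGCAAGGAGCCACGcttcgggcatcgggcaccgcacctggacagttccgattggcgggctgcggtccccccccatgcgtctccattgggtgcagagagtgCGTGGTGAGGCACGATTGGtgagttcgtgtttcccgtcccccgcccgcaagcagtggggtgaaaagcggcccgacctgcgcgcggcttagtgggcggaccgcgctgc
Pdia6: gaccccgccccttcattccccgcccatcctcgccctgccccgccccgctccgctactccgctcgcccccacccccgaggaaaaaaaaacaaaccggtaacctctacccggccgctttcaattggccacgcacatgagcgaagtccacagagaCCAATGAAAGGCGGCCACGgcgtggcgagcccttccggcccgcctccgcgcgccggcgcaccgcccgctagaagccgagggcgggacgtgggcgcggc
Herpud1: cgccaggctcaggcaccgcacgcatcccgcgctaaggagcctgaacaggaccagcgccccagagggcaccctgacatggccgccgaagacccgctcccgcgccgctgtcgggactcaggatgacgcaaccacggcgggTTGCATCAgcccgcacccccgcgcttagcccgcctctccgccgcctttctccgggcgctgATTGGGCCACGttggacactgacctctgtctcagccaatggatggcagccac
Canx: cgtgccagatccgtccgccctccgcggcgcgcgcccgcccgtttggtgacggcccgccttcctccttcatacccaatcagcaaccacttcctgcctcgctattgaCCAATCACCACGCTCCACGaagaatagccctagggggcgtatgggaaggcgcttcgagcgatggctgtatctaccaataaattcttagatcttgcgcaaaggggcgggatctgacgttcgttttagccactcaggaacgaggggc
In *Hspa5* the element ran from 65 to 47 bases before the start, and in *Pdia6* from 98 to 80. *Hsp90b1* held it both ways round, from 212 to 194 bases before the start on the strand of the gene and from 107 to 89 on the other strand. In *Canx* it ran from 145 to 127 bases before the start. *Calr* held it on the strand opposite to the gene (CGTGGTCGACCCTCATTGG, chr8:84847075-84847093). The *Herpud1* promoter held 2 different matches, the ATF4-type element from 112 to 105 and the short ER stress element from 52 to 42 bases before the start. The ATF4-type match of *Trib3* lay 14 to 21 bases after the RefSeq start, on the opposite strand, and is shown within 30 bases (chr2:152344028-152344057, minus strand).
Trib3: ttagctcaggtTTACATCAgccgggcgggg

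Levels are given as CPM, the unique molecular identifiers (UMIs, tags of single captured RNA molecules) of a gene summed over cells and scaled to 1000000 UMIs per library. Barcodes were kept where over 1000 genes were seen and mitochondrial UMIs stayed below 20%, which left 9950 of 10629 barcodes in PC5 and 4749 of 4884 in PC20. The median cell held 21700 UMIs in PC5 and 33424 in PC20. The PC5 and PC20 libraries shared 20 barcodes, and the 12 genes had the same direction without those cells. Parentheses hold 95% intervals, which cover counting error only. They are exact Poisson intervals for CPM, conditional binomial intervals for log2 ratios (PC5 over PC20, so that negative values are higher in PC20) and Clopper-Pearson intervals for shares of cells. Shares of cells and values per cell were read after each cell was thinned to 10500 UMIs, which left 8847 PC5 and 4474 PC20 cells and left out 1103 and 275 shallower ones. Of the pericyte markers *Pdgfrb*, *Cspg4*, *Anpep*, *Rgs5* and *Abcc9*, only *Pdgfrb* and *Cspg4* had a UMI in 10% of the cells of either library. *Pdgfrb* had 44.6 CPM in PC5 against 5.43 CPM in PC20, *Cspg4* had 5.55 and 0.0994 CPM, while *Rgs5* summed to 405 UMIs over PC5 cells and 0 over PC20 cells. The 20 markers of other lineages summed to 1737 CPM in PC5 and 380 CPM in PC20, and 7 of the 20 were expressed. *Col3a1* (1158 and 101 CPM in PC5 and PC20), *Tagln* (219 and 0.230 CPM), *Pdgfra* (88.6 and 0.131 CPM), *Dcn* (51.3 and 0.167 CPM) and *Aldh1l1* (7.35 and 0.0262 CPM) were past 1 with PC5 higher. *Acta2* had 62.8 and 49.2 CPM, and *Slc4a4*, with 143 and 229 CPM, was higher in PC20. The cells are called PCs as in the study. Whether the libraries hold the same kind of cell was not tested. A difference of this sort cannot be told apart from passage or isolation. Cells with a *Mki67* or *Top2a* UMI numbered 4475 of the 9950 kept PC5 cells and 3428 of the 4749 kept PC20 cells (35.6% and 58.0% after thinning).

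The 10 chaperone genes together took 0.275% of all UMIs in PC5 (612806 UMIs) and 0.793% in PC20 (1515058 UMIs), a log2 ratio of their summed level of -1.53 (-1.53 to -1.52). Of the 10 genes, 9 had their higher level in PC20 and 1 in PC5, where 51.1% and 48.9% of expressed genes had it, but the differences were of unlike size. A log2 ratio past 1 in size was found for 4 of the 10, all higher in PC20, namely *Hspa5*, *Herpud1*, *Pdia6* and *Hsp90b1*. Among the 10504 expressed genes, those seen in 10% or more of PC5 or of PC20 cells, 37% were past this size, 17.9% higher in PC5 and 19.1% higher in PC20, so a share of 4 in 10 past it in either direction lay close to that of expressed genes in general. Past 0.5 in size were 6 of the 10 with the higher level in PC20 and 1 in PC5, against 32.7% and 30.2% of expressed genes (62.9% in all). The median log2 ratio was -0.54 over the 10 genes and -0.03 over all expressed genes. Among the 3031 expressed genes at least as abundant as the lowest of the 10, 33.7% were past 1 in size and 17.7% were so with the higher level in PC20. The 4 genes past 1 summed to 864 CPM in PC5 and 6020 CPM in PC20, and the other 6 to 1883 and 1907 CPM, a split read from these values and given as a description only.

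**Figure D1:**
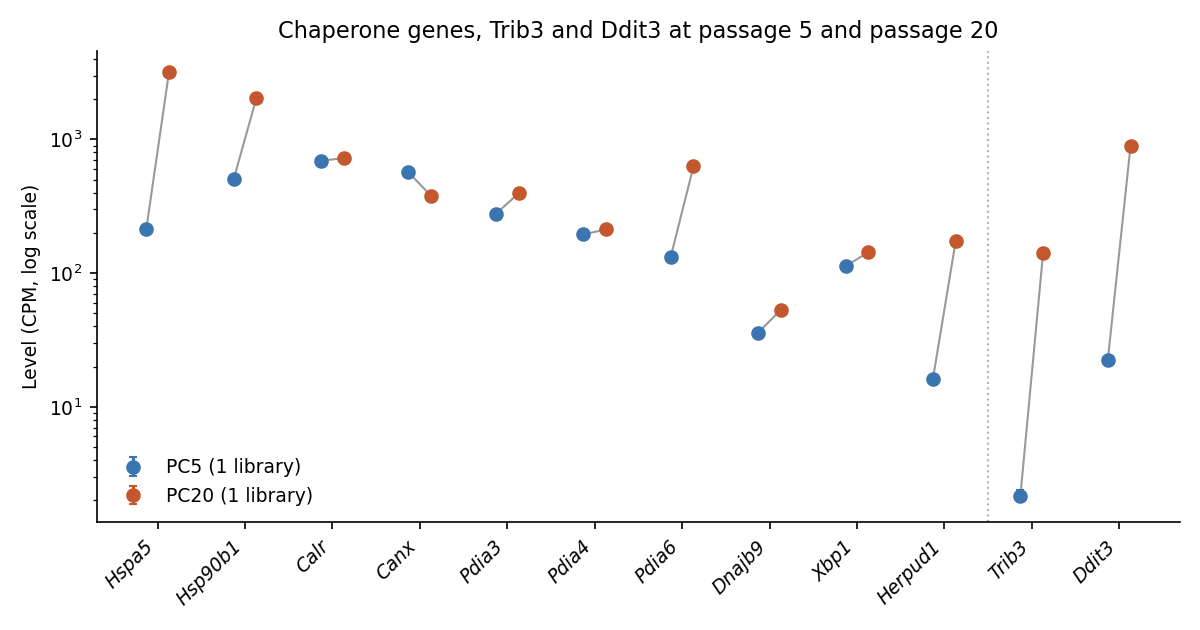
Levels of the 10 chaperone genes and, right of the dotted line, of *Trib3* and *Ddit3* in the PC5 and PC20 libraries, in CPM on a log axis. Points are library values with exact Poisson 95% intervals, mostly smaller than the points; *Hspa5* lay at 212 and 3179 CPM, *Calr* at 694 and 724 CPM, and *Canx* alone of the 10 was lower in PC20.

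*Hspa5* encodes BiP, the main Hsp70 chaperone of the ER lumen, which also holds the stress sensors inactive, and lies on chromosome 2 from 34771970 to 34777547. Its summed UMIs came to 212 CPM (210 to 214) for PC5 against 3179 CPM (3171 to 3187) for PC20 (log2 ratio -3.90, -3.92 to -3.89), a 15.0-fold difference. Only 1.88% of expressed genes had a log2 ratio as low. *Hspa5* made up 7.73% of the UMIs of the 10 genes in PC5 and 40.1% in PC20, and without it the other 9 summed to 2535 and 4748 CPM. After thinning, PC5 cells held a median of 2 *Hspa5* UMIs (10th to 90th percentile, 0 to 5) and PC20 cells a median of 34 (13 to 58). The cells of the libraries hardly overlapped, as 93.8% of PC20 cells (93.1 to 94.5) lay above the 99th percentile of PC5 cells, 9 UMIs.

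*Hsp90b1* encodes GRP94, the Hsp90 chaperone of the lumen (chromosome 10 from 86690209 to 86705509). It came to 503 CPM (500.4 to 506) for PC5 against 2039 CPM (2033 to 2046) for PC20 (log2 ratio -2.02, -2.03 to -2.01). Thinned cells held a median of 4 UMIs in PC5 and 21 in PC20, and 61.8% of PC20 cells lay above the 99th percentile of PC5. These cell distributions overlapped more than those of *Hspa5*.

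*Calr* and *Canx* encode calreticulin and calnexin, the soluble and the membrane-bound lectin that hold newly made glycoproteins until they fold. *Calr* (chromosome 8 from 84841850 to 84846934) came to 694 CPM (691 to 698) for PC5 against 724 CPM (721 to 728) for PC20 (log2 ratio -0.06, -0.07 to -0.05). *Canx* (chromosome 11 from 50293961 to 50325673) came to 567 CPM (564 to 570.3) for PC5 against 378 CPM (375 to 381) for PC20 (log2 ratio 0.58, 0.57 to 0.60), and was the gene of the 10 with its higher level in PC5. Only 1.16% of PC20 cells for *Calr* and 0.0671% for *Canx* lay above the 99th percentile of PC5 cells, where 0.746% and 0.904% of the PC5 cells themselves lay. As a share of the UMIs of the 10 genes, *Calr* made up 25.3% in PC5 and 9.14% in PC20, and *Canx* 20.6% and 4.77%.

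*Pdia3*, *Pdia4* and *Pdia6* encode protein disulfide isomerases, which make and rearrange disulfide bonds, ERp57 (*Pdia3*) working with the lectins. *Pdia6* (chromosome 12 from 17266545 to 17284770) came to 132 CPM (131 to 134) for PC5 against 628 CPM (624 to 632) for PC20 (log2 ratio -2.24, -2.26 to -2.23). *Pdia3* (chromosome 2 from 121413775 to 121438687) came to 278 CPM (276 to 280.3) for PC5 against 395 CPM (393 to 398) for PC20 (log2 ratio -0.51, -0.52 to -0.49). *Pdia4* (chromosome 6 from 47796141 to 47813430) came to 195 CPM (193 to 197) for PC5 against 212 CPM (210 to 215) for PC20 (log2 ratio -0.12, -0.14 to -0.11). Of the isomerases, *Pdia6* alone differed by more than 1 on the log2 scale, with 52.4% of PC20 cells above the 99th percentile of PC5 against 3.64% for *Pdia3* and 0.916% for *Pdia4*. *Pdia6* overlaps *Atp6v1c2* on the other strand, which had 11 and 6 UMIs (PC5 and PC20), and *Pdia3* likewise overlaps *Catsper2*, with 302 and 309 UMIs.

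*Dnajb9*, *Xbp1* and *Herpud1* are known as targets of the stress pathways themselves, as an ER-bound J-protein partner of BiP, as the transcription factor downstream of IRE1 and as a membrane protein of ER-associated degradation. *Herpud1* (chromosome 8 from 94386438 to 94395377) came to 16.3 CPM (15.7 to 16.8) for PC5 against 174 CPM (172 to 176) for PC20 (log2 ratio -3.42, -3.47 to -3.37), a 10.7-fold difference. A *Herpud1* UMI was found in 14.9% of thinned PC5 cells (14.2 to 15.7) and 78.2% of thinned PC20 cells (77.0 to 79.4), and in 28.1% and 92.7% of kept cells without thinning. *Dnajb9* (chromosome 12 from 44205559 to 44210326) was at 35.8 CPM (35.1 to 36.6) and 53.3 CPM (52.2 to 54.3), a log2 ratio of -0.57 (-0.61 to -0.53), with a UMI in 30.2% of thinned PC5 and 42.5% of thinned PC20 cells. *Xbp1* (chromosome 11 from 5520659 to 5525893) was at 113 CPM (111 to 114) and 144 CPM (142 to 145), a log2 ratio of -0.35 (-0.37 to -0.33). *Xbp1* acts after its mRNA is cut and rejoined by IRE1, which counts per gene do not show. In each library, 8 genes of other lineages (*Cd48*, *Mobp*, *Mag*, *Ptprc*, *Cd3e*, *Alas2*, *Snap25* and *Syt1*) each had a UMI in at most 0.121% of kept PC5 and 0.126% of kept PC20 cells. These genes were scarce in both cultures, so their share sets no bound on free RNA from the cultured cells. All cells use the chaperones, so no cell type that lacks them was at hand to read their free RNA.

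**Figure D2:**
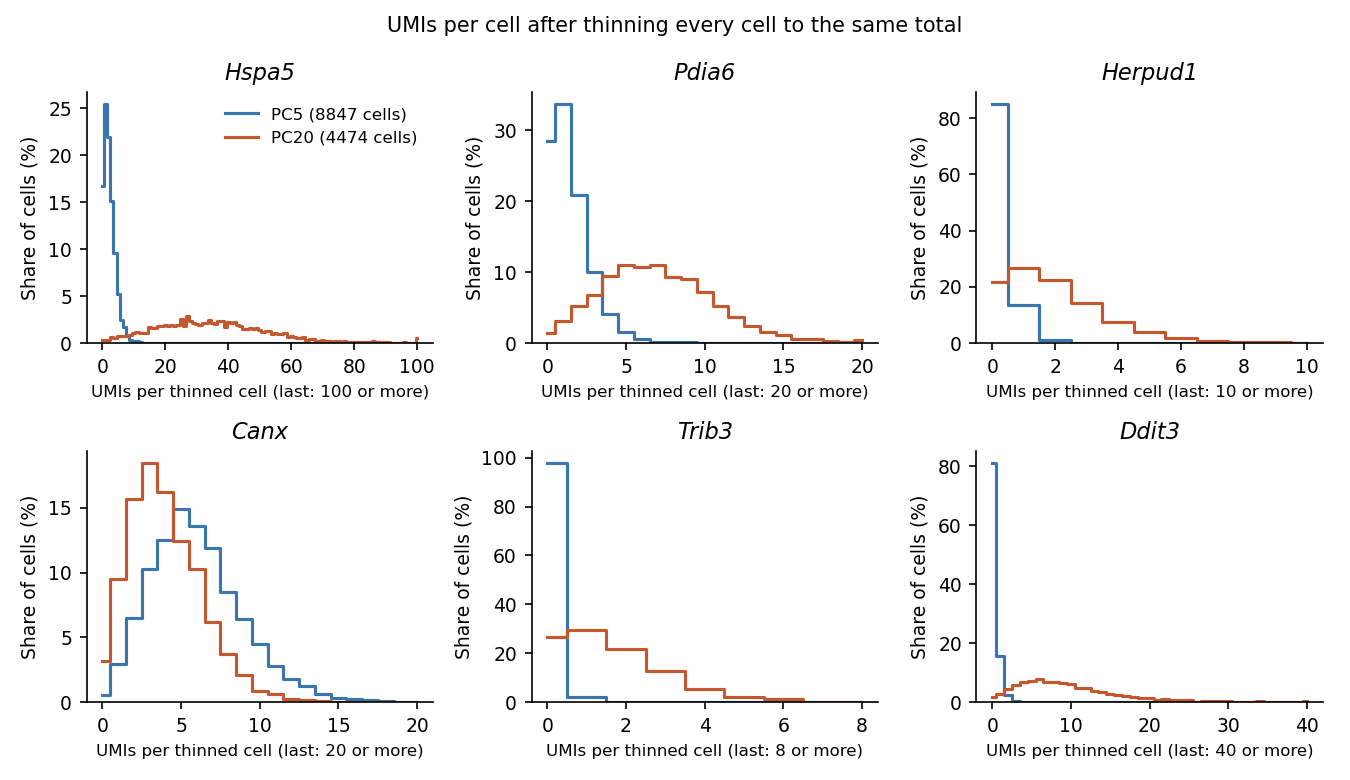
Share of cells (%) with each number of UMIs after all cells were thinned to 10500 UMIs, for 6 of the 12 genes in 8847 PC5 and 4474 PC20 cells; the last step holds all higher values. *Hspa5* and *Ddit3* distributions were nearly apart, with 93.8% and 90.9% of PC20 cells above the 99th percentile of PC5, *Pdia6* and *Herpud1* overlapped in part, and *Canx* lay lower in PC20.

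*Trib3* and *Ddit3* each differed by more than any of the 10 chaperone genes. *Trib3*, a pseudokinase that binds ATF4 and dampens its action (chromosome 2 from 152337422 to 152344032), came to 2.17 CPM (1.98 to 2.37) for PC5 against 142 CPM (141 to 144) for PC20 (log2 ratio -6.04, -6.17 to -5.91). *Ddit3*, which encodes the transcription factor CHOP (chromosome 10 from 127290774 to 127296288), came to 22.4 CPM (21.8 to 23.0) for PC5 against 894 CPM (890 to 898) for PC20 (log2 ratio -5.32, -5.36 to -5.28). *Ddit3* overlaps AC144852.1 on the same strand, which had 0 UMIs in both libraries, and *Mars* on the other strand, which had 2361 UMIs in PC5 and 7615 in PC20. Thinned cells with a UMI made up 2.31% in PC5 and 73.3% in PC20 for *Trib3*, and 19.0% and 98.1% for *Ddit3*. Of 16 listed ATF4 targets, all expressed, 14 were past 1 in size with the higher level in PC20 and 0 in PC5. The shares of all expressed genes were 19.1% and 17.9%. The median log2 ratio of the 16 was -2.60. The 16 include *Trib3*, *Ddit3* and *Atf4* itself, so their count is not separate from the differences of *Trib3* and *Ddit3*. *Chac1* (1.43 and 55.7 CPM in PC5 and PC20) followed *Trib3* and *Ddit3* most closely in size at -5.28, and *Sesn2* (39.7 and 33.9 CPM, log2 ratio 0.22) was the one with its higher level in PC5.

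The differences of the chaperone genes were also read within classes of cells, because cycling cells and depth differed between the libraries. Among cells with a *Mki67* or *Top2a* UMI the *Hspa5* log2 ratio was -3.85, and among those without it was -3.96. When the cells of each library were divided by their UMIs into 3 equal classes, shallow, middle and deep, it was -3.90, -4.06 and -3.83. Over the cycling and depth classes, *Herpud1* was between -3.58 and -3.35 and *Pdia6* between -2.40 and -2.17. *Hsp90b1* was between -2.22 and -1.87, so the 4 large differences were present in each class. *Calr* was at -0.24, -0.13 and 0.03 from the shallow to the deep class, so its direction turned in the deep class. The depth classes were cut within each library, so depth still differed between PC5 and PC20 inside a class. In cells thinned to the same total, *Hspa5* was at -3.97 and *Calr* at -0.13.

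Within PC20, the chaperone genes were compared between cells that differed in their own *Ddit3* UMIs after thinning. In 4 classes of cells with 0 to 5, 6 to 8, 9 to 13 and 14 to 59 *Ddit3* UMIs (1291, 979, 1161 and 1043 cells), *Hspa5* was at 2627, 3362, 3665 and 3841 CPM. *Hspa5* was higher in each class than in the one before, and the highest class lay 1.46-fold above the lowest. Intervals of these levels cover counting error and leave out the spread between cells. Over all thinned PC20 cells, the variance of *Hspa5* UMIs was 9.87 times their mean. *Dnajb9* (46.5 to 71.9 CPM) lay 1.54-fold, *Herpud1* (149 to 209 CPM) 1.40-fold and *Xbp1* (128 to 178 CPM) 1.39-fold above the lowest class. *Calr* (675 to 827 CPM) and *Hsp90b1* (1911 to 2317 CPM) lay 1.23-fold and 1.21-fold above it, and *Pdia4* and *Pdia6* 1.17-fold and 1.11-fold. *Pdia3* (403 to 436 CPM, 1.08-fold) and *Canx* (373 to 394 CPM, 1.06-fold) hardly differed between the end classes. Over 9949 genes the log2 ratio of the highest to the lowest class had a median of -0.10 and a 5th to 95th percentile of -0.64 to 0.34. The median over the 10 chaperone genes was 0.29, and 2 of the 10 were above 0.5 against 2.12% of all genes. Cells with a *Mki67* or *Top2a* UMI made up 56.6%, 61.2%, 60.3% and 54.2% of the classes. By *Trib3* UMIs (0, 1, 2 and 3 to 10), *Herpud1* lay 1.46-fold and *Hspa5* 1.34-fold above the lowest class in the highest one, and *Canx* 1.03-fold.

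**Figure D3:**
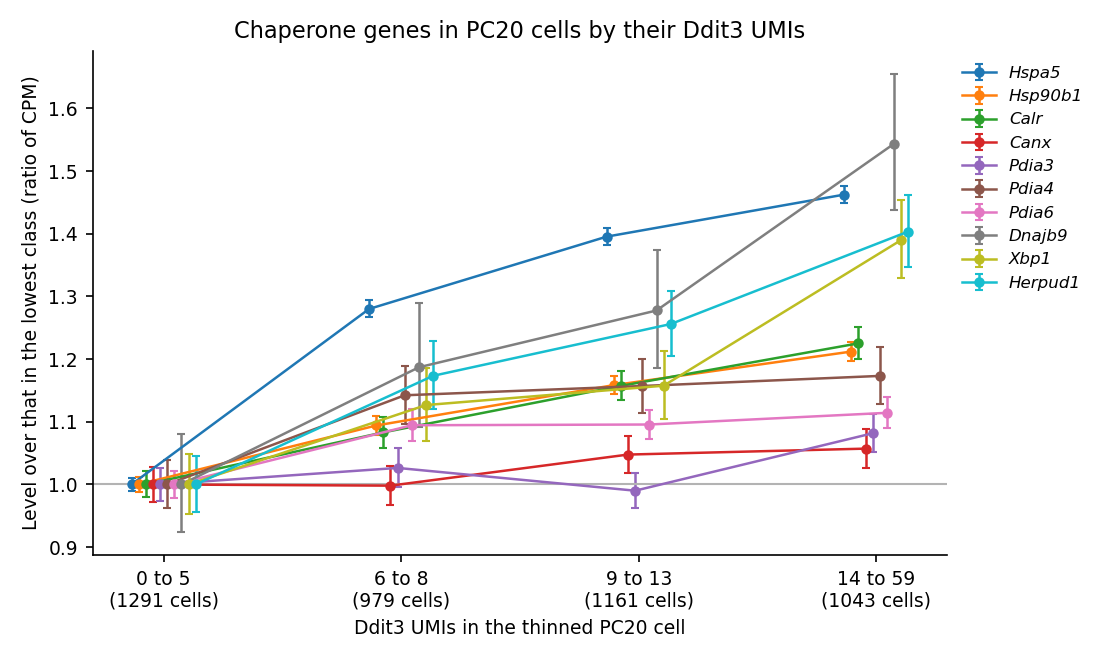
Level of each chaperone gene in 4 classes of thinned PC20 cells by their *Ddit3* UMIs, as a ratio to its level in the lowest class. Bars are exact Poisson 95% intervals of the CPM divided by the level in the lowest class; *Dnajb9* and *Hspa5* reached 1.54-fold and 1.46-fold in the highest class, and *Canx* 1.06-fold.

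Only 83 of the 4474 thinned PC20 cells had no *Ddit3* UMI. In these 83 cells *Hspa5* was at 1143 CPM, against 3382 CPM in the 4391 others, a log2 ratio (with over without *Ddit3*) of 1.57 (1.48 to 1.66). *Dnajb9* (1.58, 0.90 to 2.36) and *Herpud1* (1.27, 0.92 to 1.65) were also higher in the cells with *Ddit3*, while *Canx* (0.04, -0.12 to 0.20) and *Pdia3* (0.05, -0.10 to 0.21) did not differ beyond their intervals. The median over the 10 genes was 0.80, against 0.23 over expressed genes. The 83 cells were also shallower before thinning, at a median of 28700 UMIs against 34904, and 37.3% of them had a *Mki67* or *Top2a* UMI against 58.4%. When cells with either of these cycling genes were left out, the median over the 10 genes was 0.95. Which cells lack a *Ddit3* UMI depends on the random thinning, and with a second random draw this median was 0.62. The part of depth before thinning was not tested. *Hspa5* in the 83 cells stood above its level in the whole PC5 library. Set against PC5 cells without a *Ddit3* UMI, the 83 cells also had higher *Hsp90b1*, *Pdia3*, *Pdia6* and *Herpud1*, and lower *Canx*. *Calr* (546 against 684 CPM), *Pdia4* (122 against 191 CPM), *Dnajb9* (19.5 against 36.0 CPM) and *Xbp1* (88.4 against 117 CPM) were lower in the 83 cells. Over all kept cells, these last genes were higher in PC20. By *Trib3*, the 3281 PC20 cells with a UMI had the higher level of all 10 genes over the 1193 without, where 56.5% of expressed genes had it, by a median of 0.15 against 0.03 over expressed genes. The interval of *Dnajb9* (0.12, -0.0042 to 0.25) included 0.

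In PC5, where *Trib3* was found in 204 of 8847 thinned cells, the cells with a *Trib3* UMI had a median log2 ratio of 0.17 over the 10 genes, against 0.07 over expressed genes. *Herpud1* was at 28.9 CPM in them and 15.3 CPM in the others, a log2 ratio of 0.92 (0.53 to 1.29), and *Ddit3* at 57.0 and 22.1 CPM. By *Ddit3*, found in 1677 PC5 cells and not in 7170, the differences were smaller, with a median of 0.09 against 0.03 over expressed genes. *Hspa5* was at 0.11 (0.06 to 0.16) and *Herpud1* at 0.21 (0.03 to 0.40). The intervals of *Pdia6* (0.03, -0.04 to 0.09) and *Xbp1* (0.01, -0.06 to 0.08) included 0. In the 66 PC5 cells with UMIs of both *Trib3* and *Ddit3*, *Herpud1* was at 49.1 CPM, and *Hspa5* at 261 CPM, against 15.1 and 208 CPM in the 7032 cells with neither. Of the 10 genes 7 were higher in the 66 cells, as were 61.6% of expressed genes. The median log2 ratio was 0.17 over the 10 genes and 0.11 over expressed genes, and *Pdia4* was lowest at -0.08. The *Hspa5* level of those 66 cells stayed below that of the 63 PC20 cells with neither, which was 845 CPM.

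All 45 pairs of the 10 chaperone genes had a positive correlation across cells in both libraries. The share of positive pairs among other expressed genes was not read. Values of the 45 pairs were mostly higher in PC20, where most of the 10 also had more UMIs per cell. The part of UMIs per cell in this was not tested. Correlations here are Pearson's *r* of log(1 + UMIs) across thinned cells, which share a library, and are given as descriptions. Over the 45 pairs, the median *r* was 0.06 across PC5 cells (0.0002 to 0.24) and 0.14 across PC20 cells (0.03 to 0.60). *Hspa5* with *Hsp90b1* had the highest *r* in both libraries, 0.24 in PC5 and 0.60 in PC20, and was followed in PC20 by *Hspa5* with *Pdia6* (0.50) and *Hsp90b1* with *Pdia6* (0.46). *Dnajb9*, with few UMIs per cell, had an *r* of at most 0.12 with any other of the 10 genes in PC20. In PC20, *Ddit3* had an *r* of 0.35 with *Hspa5* and 0.04 with *Canx* and *Pdia3*, with a median of 0.13 over the 10 genes, and *Trib3* a median of 0.09. *Trib3* with *Ddit3* reached 0.21 in PC20 and 0.09 in PC5. Where UMIs are few, as for *Trib3* and *Ddit3* in PC5, an *r* near 0 says little.

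**Figure D4:**
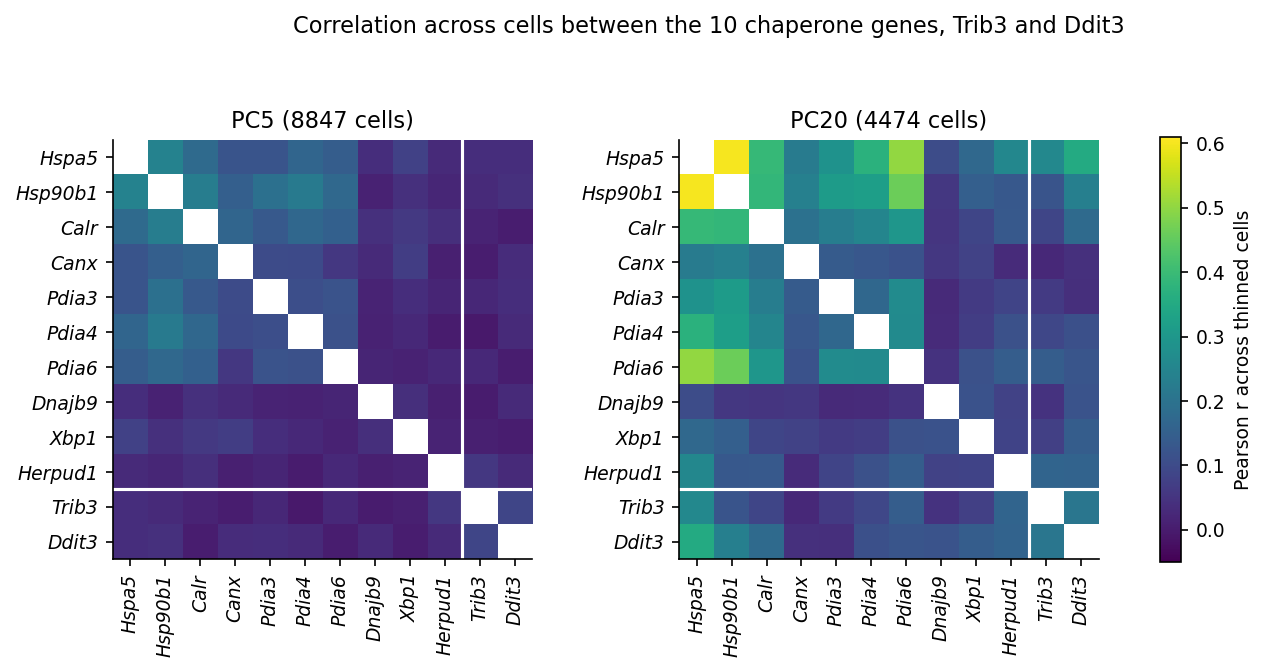
Pearson's r of log(1 + UMIs) across 8847 thinned PC5 cells and 4474 thinned PC20 cells for each pair of the 12 genes (colour, from -0.05 to 0.61; the diagonal is blank). White lines set *Trib3* and *Ddit3* apart; the pairs of *Hspa5*, *Hsp90b1* and *Pdia6* stood out in PC20, at 0.46 to 0.60.

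The genes most like the chaperone set were named by their *r* with the mean of the 10 genes, each scaled to unit variance, among genes with a UMI in 10% of thinned cells. In PC20, of 7283 genes, these were *Ero1l* (0.51), *Hspa9* (0.45), *Manf* (0.42), *Eprs* (0.41) and *Sdf2l1* (0.35), while the median over genes outside the set was 0.03. ERO1 feeds oxidizing equivalents to the disulfide isomerases, mortalin (*Hspa9*) is the Hsp70 of mitochondria, MANF and SDF2L1 are ER proteins that work with BiP, and *Eprs* encodes a tRNA synthetase. In PC5, of 7429 genes, they were *Serpinh1* (0.30), *Sparc* (0.27), *Nid1* (0.26), *Rtn4* (0.25) and *Col1a2* (0.24). *Serpinh1* is the collagen chaperone of the ER, *Sparc*, *Nid1* and *Col1a2* encode matrix proteins, and *Rtn4* shapes ER tubules. *Col1a2* had 1737 CPM in PC5 against 0.0471 CPM in PC20, and *Nid1* had 1705 and 71.5 CPM. *Ddit3* had an *r* of 0.29 with the set in PC20, with 20 genes outside the set above it, and 0.06 in PC5, with 1645 above it. As *Ddit3* had a UMI in only 19.0% of thinned PC5 cells, its low *r* there says little. Each chaperone gene was also set against the mean of the others. In PC5, *Hspa5*, *Hsp90b1* and *Calr* had 0 of the 7429 outside genes above them. *Herpud1* (0.04), *Dnajb9* (0.05) and *Xbp1* (0.10) had 3010, 1963 and 425 above them, and in PC20 84, 581 and 136.

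Other genes of ER folding were read from lists, whose counts stand against 19.1% of expressed genes past 1 with PC20 higher and 17.9% with PC5 higher. The lists were not tested against each other. Among 14 further luminal chaperones and cofactors, 5 were past 1 with PC20 higher and 1 with PC5 higher (median log2 ratio -0.76). *Sil1*, the nucleotide exchange factor of BiP (7.67 and 60.1 CPM, -2.97), *Sdf2l1* (26.5 and 179 CPM, -2.76) and *Creld2* (16.5 and 76.6 CPM, -2.22) were the lowest, and *Dnajc10*, an ER J-protein with disulfide reductase activity, was higher in PC5, where it had 173 CPM and where it stood alone past 1 in that direction. Of 12 disulfide enzymes, 7 were past 1 with PC20 higher and 1 with PC5 higher (median -1.26). *Ero1l* had 144 CPM in PC5 against 2639 CPM in PC20 (-4.19), a larger difference than that of any of the 10 genes. *Prdx4*, an ER peroxiredoxin, was at 38.8 and 156 CPM and *Ero1lb* at 2.14 and 7.50 CPM (-1.81), while *Txndc5* was at 192 and 95.8 CPM (1.00).

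For glycoprotein quality control, degradation, translocation and prolyl isomerization the same shares of expressed genes, 19.1% and 17.9%, apply. Of 8 genes of the glycoprotein cycle, 1 was past 1 in each direction, *Lman1* (119 and 288 CPM, -1.28) and *Man1b1* (20.7 and 9.97 CPM, 1.06), with a median of -0.03. Of 17 genes of ER-associated degradation 16 were expressed, 2 were past 1 in each direction and the median was -0.06, from *Selenos* (-1.12) to *Edem3* (1.26), with *Derl1* (-1.01) and *Ube2g2* (1.16). Of 14 translocation genes 3 were past 1, all higher in PC20, *Ssr2* (-1.82), *Spcs2* (-1.44) and *Srpr* (-1.04), a share close to that of expressed genes, with *Ssr1* highest at 0.72 and a median of -0.24. Of 8 ER prolyl isomerases 3 were past 1 with the higher level in PC20, *Fkbp2* (-2.10), *Fkbp11* (-1.89) and *Ppib* (-1.35), and 2 in PC5, *Fkbp14* (26.2 and 5.66 CPM, 2.21) and *Fkbp9* (1.06), with a median of -0.25.

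Of 7 genes, those of the stress sensors, of their proteases and of eIF2α, 3 were past 1 in size, all higher in PC20. Among expressed genes, 19.1% were past 1 with PC20 higher and 37% in either direction. *Atf6* had 10.1 CPM in PC5 against 68.9 CPM in PC20 (-2.77), *Ern1*, which encodes IRE1, had 10.2 and 30.4 CPM (-1.58), and *Eif2s1*, which encodes eIF2α, had 85.8 and 172 CPM, just past 1. *Mbtps1*, which encodes a protease that cleaves ATF6, was highest at 53.0 and 33.3 CPM (0.67), and the median of the 7 was -0.09. Of 15 chaperones of the cytosol and mitochondria 4 were past 1, all higher in PC20, against 19.1% of expressed genes, with a median of -0.56. They were *Hspa9* (136 and 847 CPM, -2.64), *Hspb1* (-1.51), *Trap1* (-1.40) and *Hspd1* (-1.08), of which *Hspa9*, *Trap1* and *Hspd1* encode mitochondrial proteins, and *Bag3* lay at the other end (0.69).

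**Figure D5:**
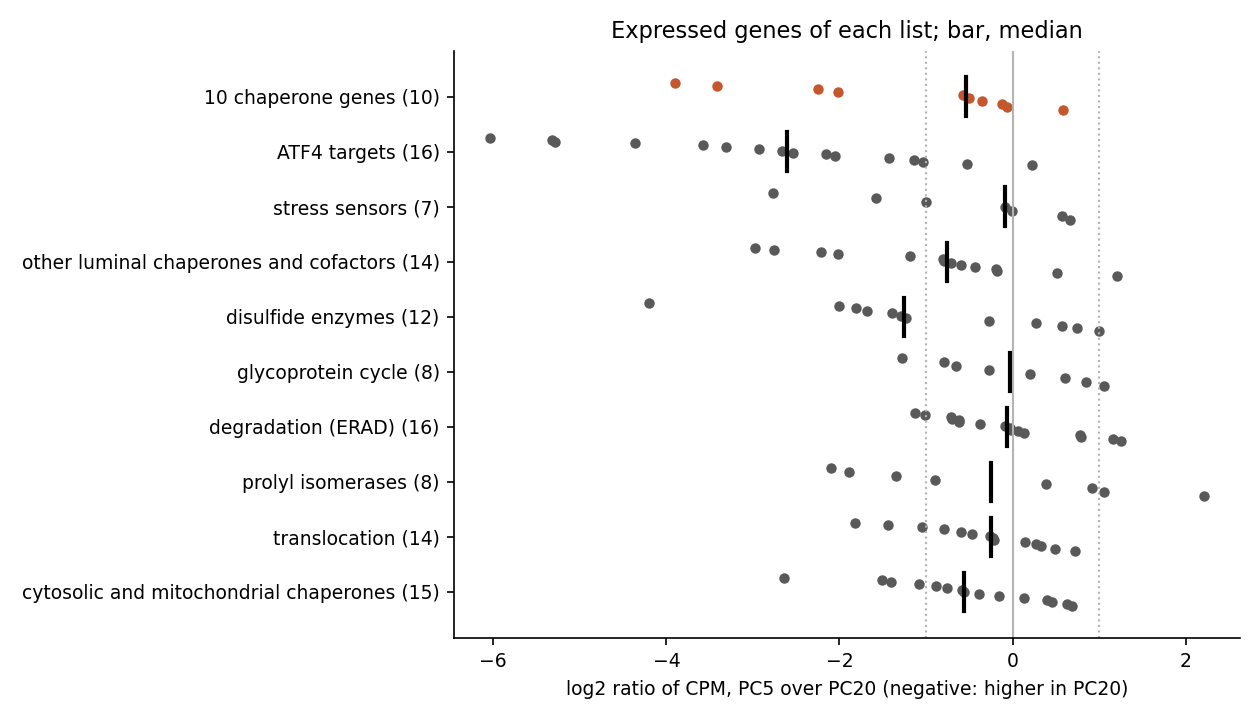
log2 ratio of CPM (PC5 over PC20) of each expressed gene of the 10 chaperone genes and of 9 lists, with the number of genes in parentheses; bars are medians and dotted lines mark a ratio of 1 in size. Of the 10 chaperone genes 4 lay between -3.90 and -2.02 and 6 lay between -0.57 and 0.58. The ATF4 targets, *Trib3* and *Ddit3* among them, had a median of -2.60.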

How the data were processed

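Cultured mouse brain PCs were read in 1 library at passage 5 and 1 at passage 20, grouped by their titles. The authors deposited raw UMI counts for each gene in each barcode, without normalization, made with CellRanger 5.0.1 from reads mapped to mm10. Per the labels, the libraries were made with a kit that tags the 3′ end of RNA, so counts carry no length scaling and no splicing. No order of levels between genes is drawn.

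Barcodes with over 1000 genes seen and mitochondrial UMIs below 20% were kept, following the study's methods, and counts were summed per library (223054273 UMIs in PC5, 191122251 in PC20). Genes seen in 10% or more of PC5 or of PC20 cells were called expressed. With 1 library per passage no test was possible, and a gene was counted by a log2 ratio past 1 in size, without a pseudocount. Intervals at the 95% level cover counting error only. Thinned cells were drawn at random to 10500 UMIs. Doublets were not removed; an alternative left out cells above 2 times the median UMIs. Poisson counts were simulated for 10653 genes of this comparison, with 200 made to differ 4-fold and no variation between cultures. The sign was right for 100% of the 200, which checks the calculation only.

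The 10 genes, the lists and the settings were chosen with earlier results of these data known, so no list is independent evidence. The genes named are the 10, *Trib3* and *Ddit3*, at most 3 genes per direction past 1 and the ends of each list, and the 5 genes most like the set in each library. Markers, overlapping genes and the scarce genes of other lineages were named after their values were seen. Gene positions are from GENCODE M21 on GRCm38, and promoter sequences from RefSeq on GRCm38.p6. The gene starts of these sources differ for some genes, and distances to a start are from RefSeq. The *Trib3* match, after the RefSeq start, lies before the GENCODE start, and the *Hspa5* match lies inside the GENCODE gene. The deposited columns were all used. Protein sequences were not analysed here, nor were the study's adult and embryonic cells. Python 3.11.15, NumPy 2.4.6, SciPy 1.17.1, pandas 2.3.3 and edgeR 4.0.16 (TMM factors only) were used.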

Additional observations from a re-analysis of the deposited data

Results flagged for a closer look

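*Hsp90b1*, *Calr* and *Pdia6* went opposite ways in the libraries when cells with a *Mki67* or *Top2a* UMI were set over cells without. Their intervals, which cover counting error and not the spread between cells, excluded 0 in each library. The log2 ratio (with over without) of *Hsp90b1* was 0.31 in PC5 and -0.033 in PC20, that of *Calr* 0.061 and -0.13, and that of *Pdia6* 0.11 and -0.12. Over expressed genes the median of this contrast was 0.060 in PC5, about the value of *Calr* there, and 0.0044 in PC20. When the third of cells with the most UMIs was set over the third with the fewest, *Hsp90b1* had a log2 ratio of 0.095 in PC5 and -0.18 in PC20, and *Calr* of 0.15 and -0.13. The genes were noted for these opposite signs. How many expressed genes met the same rule was not read, and with many UMIs even small differences pass it. Both contrasts used cells without thinning, where a deeper cell is more likely to show a *Mki67* or *Top2a* UMI, so they are not separate observations. The part of depth was not tested. The difference between the libraries was not tested, and there is 1 library per passage.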

How the results depend on the processing

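The 12 genes kept their direction under all 12 alternatives, and 4 of the 10 chaperone genes stayed past 1 under each of these. The median log2 ratio of the 10 was -0.61 without cells above 2 times the median UMIs, -0.66 in cells without and -0.59 in cells with a *Mki67* or *Top2a* UMI, -0.60 in thinned cells, -0.62 with TMM scaling, -0.61 with median-of-ratios scaling and -0.58 from means over cells. From means over cells plus a pseudocount of 1 it was -0.31, and *Trib3* moved from -6.04 to -1.27 and *Herpud1* from -3.42 to -1.25, since a pseudocount shrinks genes with few UMIs. TMM scaling moved the median of all expressed genes from -0.03 to -0.11. Past 0.5 in size were 7 of the 10 chaperone genes, beside 6605 (62.9%) of expressed genes. The number of expressed genes past 1 was 3891, and became 2548 of 8612 with 10% of cells in both libraries. It was 8155 of 17981 with a UMI in both libraries. With the pseudocount it was 291 of 10504 (2.77%), so there a share of 4 in 10 did not lie close to that of expressed genes. Genes of like abundance were not read under the pseudocount.

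The median *r* of the 45 pairs without thinning was 0.17 in PC5 and 0.31 in PC20, and in PC20 cells without a *Mki67* or *Top2a* UMI 0.18. For *Trib3* with the 10 genes in PC20 it was 0.20 without thinning and 0.14 without cycling cells, and for *Ddit3* with the 10 genes 0.23 without thinning. *Trib3* with *Ddit3* was at 0.12 in PC5 and 0.33 in PC20 without thinning, and by Spearman at 0.059 in PC5. The median log2 level in cells with over without a *Trib3* UMI was 0.078 in PC5 and 0.33 in PC20 without thinning and 0.25 in PC20 without cycling cells. With over without a *Ddit3* UMI it was 1.09 in PC20 without thinning and 0.62 with a second random thinning. Leaving out the 20 shared barcodes, and every alternative for cells with over without a *Trib3* or *Ddit3* UMI, were chosen after seeing the data. No paired analysis was possible because each passage has 1 library. Depth limits *Trib3*, *Herpud1*, *Ddit3* and *Dnajb9* in PC5, which had a UMI in 2.31%, 14.9%, 19.0% and 30.2% of thinned cells.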
